A study of Mus musculus with 4 samples.

Results

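Amino acid and neurotransmitter carriers are the membrane proteins that move amino acids, monoamines, GABA, betaine and taurine across the cell surface and the lysosomal membrane. The carriers described here are the 60 protein-coding mouse genes of solute carrier families 1, 3, 6, 7, 36, 38 and 43 in a deposited count table of 31227 genes. Members were taken by symbol, as a family number followed by a member number. The set itself was chosen with earlier results of these data known. The creatine carrier of family 6 was left out, and so were Slc6a20a and Slc6a20b, whose symbols end in a letter; these 2 are described with the other carriers near the end. RNA was sequenced from epithelial cells of the colon of mice aged 8 to 10 weeks that had drunk 3.5% dextran sulfate sodium (DSS) for 5 days. DSS is a polymer that injures the colonic lining. The mice then had plain water and were killed on day 7, although the samples' time label reads 5 days. The wild-type (WT) group had 2 libraries (replicates 1 and 3) and the group of mice lacking Smad4 in the epithelium (Smad4 KO) had 2 libraries (replicates 1 and 2). Every library came from DSS-treated mice, and the genotypes are compared under DSS alone. The sources used here do not give the promoter that drives the deletion. Whether the libraries were made from different animals is not stated; p-values therefore reflect only library-to-library spread, which may be technical.

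In the intestine, amino acid carriers of the apical membrane take up free amino acids from the lumen, and basolateral exchangers pass them to the blood or load them from it. Families 3 and 7 work as pairs: a heavy chain of family 3 brings a light chain of family 7 to the surface, and the light chain does the transport. Family 6 is coupled to sodium and chloride and holds the carriers that clear serotonin, GABA, glycine and taurine. Family 36 includes carriers driven by protons, and family 38 carries small neutral amino acids such as glutamine, with some members in the lysosome. When amino acids run short or the endoplasmic reticulum is stressed, the transcription factor Atf4 induces a set of genes that includes several of these carriers. Atf4 acts through C/EBP-ATF response elements, among them a pair in the Slc7a11 promoter that is well known.

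The promoter windows of 4 carriers are shown because they hold such letters, or because the gene had the largest fitted change with counts in both genotypes. The windows come from RefSeq on GRCm38.p6 and run from 250 bases before to 50 bases after a gene start, written 5′ to 3′ on the gene's strand. Of the 60 carriers, 43 had a window. Capitals mark matches on either strand to TGATGNAA, the core of the C/EBP-ATF response element, or to TGACNNNGC, the core of the antioxidant response element bound by Nrf2. The window of Slc7a11, the cystine and glutamate exchanger, lies at chr3:50443564-50443863 on the minus strand. That of Slc1a4, a carrier of alanine, serine and cysteine, lies at chr11:20332664-20332963 on the minus strand. One of the Slc7a7 windows lies at chr14:54417895-54418194 on the minus strand, and the Slc36a1 window at chr11:55204090-55204389 on the plus strand.
Slc7a11: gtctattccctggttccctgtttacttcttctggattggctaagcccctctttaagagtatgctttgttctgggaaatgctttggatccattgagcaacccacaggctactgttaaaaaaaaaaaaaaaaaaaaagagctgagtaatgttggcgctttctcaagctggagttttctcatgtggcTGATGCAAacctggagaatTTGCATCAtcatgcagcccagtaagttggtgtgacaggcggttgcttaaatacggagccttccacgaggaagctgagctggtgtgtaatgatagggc
Slc1a4: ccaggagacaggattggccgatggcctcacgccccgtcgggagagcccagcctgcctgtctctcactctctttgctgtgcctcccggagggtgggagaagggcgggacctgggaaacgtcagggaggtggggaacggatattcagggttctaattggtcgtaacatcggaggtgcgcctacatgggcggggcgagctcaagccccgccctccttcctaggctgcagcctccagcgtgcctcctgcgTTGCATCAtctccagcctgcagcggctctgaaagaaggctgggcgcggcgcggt
Slc7a7: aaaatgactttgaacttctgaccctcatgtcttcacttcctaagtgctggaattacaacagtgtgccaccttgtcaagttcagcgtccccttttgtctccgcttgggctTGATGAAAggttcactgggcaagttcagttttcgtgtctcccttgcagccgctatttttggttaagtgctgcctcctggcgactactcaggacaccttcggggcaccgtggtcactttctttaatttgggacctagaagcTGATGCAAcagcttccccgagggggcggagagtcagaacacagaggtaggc
Slc36a1: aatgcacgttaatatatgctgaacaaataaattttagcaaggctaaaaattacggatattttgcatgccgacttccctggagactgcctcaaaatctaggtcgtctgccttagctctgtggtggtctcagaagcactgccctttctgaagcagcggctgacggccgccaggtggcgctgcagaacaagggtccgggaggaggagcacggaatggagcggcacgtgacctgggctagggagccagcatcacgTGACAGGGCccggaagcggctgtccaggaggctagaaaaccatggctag

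The Slc7a11 window held the TGATGNAA core on both strands, starting 66 and 47 bases before the gene start. Slc1a4 held it 4 bases before its start. In the Slc7a7 window printed, the matches start 141 bases and 1 base before the start used for that window. This start lies outside the gene in GENCODE M21 (chr14:54369442-54417780). An overlapping window, whose start lies inside the gene, holds the latter site 243 bases before its start. The gene's other windows held no match. Of the 9 carriers that rose and had a window, these 3 held a match (4 of 16 windows). The 6 carriers that fell held it in 0 of 10 windows, the 13 tested carriers that did not pass in 0 of 17, and the 15 untested carriers in 1 of 21. Over all 32851 windows of the table, 3.97% held the match. TGACNNNGC was in 11 of the carriers' 64 windows and in 12.4% of all windows. In Slc36a1 it starts 2 bases after the start used for the window. That position is ahead of the gene's first base in GENCODE M21 (chr11:55204350). A match is a stretch of letters and was not tested for binding. Slc7a5, Slc6a6, Slc1a5 and Slc7a2 are among the 17 carriers without a window.

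The 4 libraries held 42577920 to 67927291 counts. Levels are counts scaled to a common library size (CPM) with sizes scaled by TMM, shown for each library or as the genotype mean ± SD (n = 2). Changes are KO relative to WT from edgeR's quasi-likelihood test on the whole table, with p-values adjusted over all 15838 tested genes by Benjamini and Hochberg and a threshold of 0.05. Smad4 itself had 152 and 180 CPM in its WT pair against 51.5 and 41.1 CPM in its KO pair, in the direction of the labels. Defining epithelial genes (Epcam, Krt8, Cdh1 and 5 others) summed to 13800 to 15500 CPM per library, and 4 of the 8 rose in KO (Krt20 by 1.65-fold, Cdx2 by 1.5-fold, Epcam by 1.23-fold and Krt18 by 1.22-fold). Of 5 goblet cell genes, Fcgbp fell 1.98-fold, Clca1 fell 1.88-fold and the mucin Muc2 rose 1.56-fold. The part of these shifts in the carriers' values was not tested. Over all tested genes, 8.83% rose and 6.4% fell. Neutrophil markers summed to 9.75 and 13.6 CPM in WT and to 112 CPM in each KO library, and 5 of 6 rose. Macrophage markers summed to 11.2 and 14.1 CPM against 44.8 and 48.3 CPM, and 3 of 7 rose. Fibroblast markers summed to 16.4 and 16.6 against 22.6 and 23.7 CPM, and T cell markers to at most 13.2 CPM, with 1 riser each. Endothelial, smooth muscle, enteric neuron and B cell lists stayed at or under 7.34 CPM in every library, with Cldn5, Sox10 and Mzb1 at 0. Fewer cells of a type and less RNA per cell cannot be told apart in such bulk samples.

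Of the 60 carriers, 13 had no count in any library, 9 had too few counts to be tested and 38 were tested. The 22 untested carriers reached at most 0.333 CPM in any library. They included the noradrenaline and dopamine carriers Slc6a2 and Slc6a3, the brain glycine carrier Slc6a5, the GABA carrier Slc6a11, the kidney carriers Slc6a18 and Slc7a13, Slc36a2 and the liver carrier Slc38a4. Among the 38 tested carriers 13 rose, 6 fell and 19 did not pass. That is 34.2% higher and 15.8% lower, while 8.83% of all tested genes rose, 6.4% fell and 15.2% changed in either direction. The median log2 change was 0.32 over the tested carriers and 0.01 over all tested genes. These shares are a description of carriers that passed a filter on low counts, and the filter can admit a gene through the genotype in which it is high. No carrier that rose or fell had overlapping libraries, which 59.4% of all tested genes also lacked. With 2 libraries a genotype the calls lean on each KO library: 5 carriers rose without KO replicate 1, and 5 without KO replicate 2. The carriers that fell numbered 4 to 5 in the 4 fits that left out a library.

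**Figure D1:**
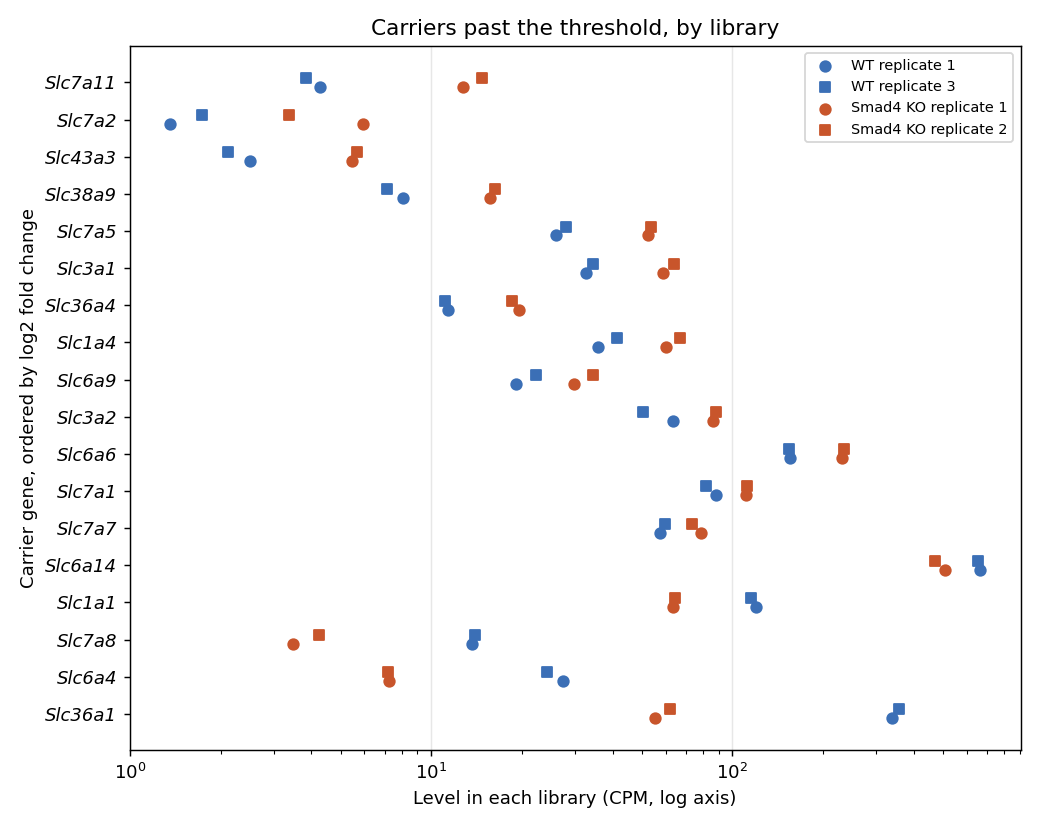
Level of 18 of the 19 carriers that passed, in CPM on a log axis, with 1 point per library (blue WT, orange Smad4 KO; circles and squares are the libraries of a genotype) and genes ordered by log2 fold change. Slc36a1, Slc6a4, Slc7a8, Slc1a1 and Slc6a14 have both KO points to the left of both WT points, and the other genes the reverse; Slc6a12 is not drawn because it is at 0 in KO.

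Levels of different genes were set side by side per kilobase of exon (CPM per kb). Slc6a14, an apical carrier with a broad appetite for neutral and cationic amino acids that is known from the colon, was the highest carrier in every library. It stood at 193 and 191 CPM per kb in WT and at 149 and 136 in KO. In WT it was followed by Slc36a1 (60.2 and 63.6), the glutamine exchanger Slc1a5 (58.6 and 55.4), Slc38a2 (32.1 and 33.1) and Slc38a10 (25.2 and 24.2). In KO the order was Slc6a14, Slc1a5 (43.6 and 48.8), Slc38a2 (32.1 and 31.6), Slc6a6 (27.4 and 27.7) and Slc3a1 (25.8 and 28.2), and Slc36a1 stood eleventh at 9.84 and 11 CPM per kb. Slc6a6 and Slc3a1 overlapped in KO and so are not ordered beyond their spread. The 5 highest carriers held 71.0% of the summed per-kilobase level of all carriers in WT and 60.9% in KO. The sum itself was 521 and 516 CPM per kb in the WT libraries and 452 and 451 in the KO libraries. With the longest transcript in place of all exons, Slc1a5 came before Slc36a1 in WT, and Slc7a7 took the place of Slc3a1 in KO.

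The proton-coupled family held the largest fall with counts in both genotypes. Slc36a1, which carries proline, glycine and alanine with protons at the surface and in lysosomes, had 339 and 358 CPM in its WT pair against 55.4 and 62.0 CPM in its KO pair. It fell 5.94-fold (log2 change -2.57, SE 0.0834, edgeR adjusted p = 0.000197). The gene (ENSMUSG00000020261) lies at chr11:55204350-55236330 on the plus strand in GENCODE M21 on GRCm38. Its neighbours in the same family, Slc36a2 and Slc36a3, were at 0 in all 4 libraries. Slc36a4, a carrier of proline and tryptophan, went the other way, with 11.4 and 11.1 CPM (WT) against 19.5 and 18.5 CPM (KO) (log2 change 0.75, SE 0.111, edgeR adjusted p = 0.0118). Per kilobase, Slc36a1 exceeded Slc36a4 by 34.4 and 37.5 times in the WT libraries and by 3.31 and 3.89 times in the KO libraries. Slc36a4 lost its call when either KO library was dropped (edgeR adjusted p from 0.0298 to 0.086 over the 4 fits).

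Among the carriers of neurotransmitters and related solutes, the serotonin carrier fell. Slc6a4 takes serotonin back into cells and ends its action on the gut wall. It had 27.4 and 24.3 CPM in its WT pair against 7.24 and 7.21 CPM in its KO pair, a 3.58-fold fall (log2 change -1.84, SE 0.121, edgeR adjusted p = 0.000951). The gene lies at chr11:76998603-77032340 on the plus strand. Slc6a6, the taurine carrier, rose from 155 and 154 CPM to 232 and 234 CPM (log2 change 0.60, SE 0.057, edgeR adjusted p = 0.00301). Its 2 libraries of a genotype lay within 3 CPM of each other and far from the other genotype. Slc6a9, a glycine carrier, rose from 19.1 and 22.3 CPM to 29.9 and 34.4 CPM (log2 change 0.64, edgeR adjusted p = 0.034). It kept its call only without WT replicate 3 (edgeR adjusted p from 0.036 to 0.184 over the 4 fits that left out a library). Its exons overlap those of Ccdc24 on the opposite strand, which fell 2.95-fold (adjusted p by edgeR = 0.0247), and the sources used here do not say whether counting used strand.

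Slc6a12, the betaine and GABA carrier, had 0.864 and 0.642 CPM in the WT libraries and no count in either KO library. Against a floor of 12 counts over the KO group (0.0946 CPM; 3 steps of about 4 counts, the unit in which low counts of this table come) it was at least 7.96-fold lower. Its call (edgeR adjusted p = 0.0228) was lost without each of the 4 libraries in turn (edgeR adjusted p from 0.066 to 0.0882). Markers of enteric neurons and glia summed to 2.50 and 3.95 CPM in WT and to 1.70 and 1.84 CPM in KO, and their part in the Slc6a12 values was not tested.

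Among the 60 carriers, the amino acid carriers of family 6 with counts were Slc6a14, Slc6a7 and Slc6a19. Slc6a14 (ENSMUSG00000031089, chrX:21714896-21742355, plus strand) had 664 and 654 CPM (WT) against 510.0 and 469 CPM (KO). It fell 1.35-fold (log2 change -0.43, SE 0.0603, edgeR adjusted p = 0.0101), a call lost without KO replicate 2 (edgeR adjusted p from 0.0205 to 0.086 over the 4 fits). Slc6a19, the main neutral amino acid carrier of the small intestinal brush border, was low in both genotypes, at 1.41 and 1.70 CPM and at 1.40 and 1.38 CPM (adjusted p by edgeR = 0.803). Its kidney partner protein Cltrn was at 0 in every library. Slc6a7, a proline carrier best known from the brain, had 12.3 and 10.3 CPM (WT) against 13.3 and 15.3 CPM (KO) and missed the threshold (edgeR adjusted p = 0.22).

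Both heavy chains rose. Slc3a1, the partner of the cystine and dibasic amino acid carrier Slc7a9, had 32.6 and 34.4 CPM (WT) against 58.7 and 64.0 CPM (KO) (log2 change 0.87, SE 0.0902, edgeR adjusted p = 0.00391). Slc7a9 did not pass. Its libraries overlapped, at 15.9 and 13.1 CPM (WT) against 13.7 and 11.4 CPM (KO) (edgeR adjusted p = 0.475). Per kilobase, Slc7a9 stood at 0.413 and 0.322 of Slc3a1 in the WT libraries and at 0.199 and 0.151 in the KO libraries. The Slc3a1 exons overlap at their end with those of Prepl on the other strand, which was at 60.7 ± 1.43 and 52.1 ± 2.45 CPM and missed the threshold (edgeR adjusted p = 0.135). Slc3a2, the heavy chain known as the surface antigen CD98, rose from 63.5 and 50.6 CPM to 86.3 and 88.4 CPM (log2 change 0.61, SE 0.121, edgeR adjusted p = 0.0287). Its call went when either KO library was dropped (edgeR adjusted p from 0.00757 to 0.14 over the 4 fits).

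The light chains that pair with Slc3a2 parted in direction. Slc7a11, which brings in cystine in exchange for glutamate, rose 3.37-fold, from 4.27 and 3.85 CPM to 12.8 and 14.7 CPM (log2 change 1.75, SE 0.16, edgeR adjusted p = 0.00261). Slc7a5, the exchanger of large neutral amino acids such as leucine, rose 1.97-fold, from 25.9 and 28.0 CPM to 52.3 and 53.8 CPM (log2 change 0.98, SE 0.0916, edgeR adjusted p = 0.0028). For both genes the lowest KO library lay well above the highest WT library. Slc7a8, a second exchanger of neutral amino acids that is known from the basolateral membrane of epithelia, fell 3.59-fold, from 13.7 and 14 CPM to 3.49 and 4.23 CPM (log2 change -1.84, SE 0.164, edgeR adjusted p = 0.00245). These 3 genes lie at chr3:49892526-50443614, chr8:121881150-121907694 and chr14:54722209-54781946, all on the minus strand, and kept their calls whichever of the 4 libraries was dropped.

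Slc7a7, the basolateral exchanger of cationic for neutral amino acids, rose by less, from 57.4 and 59.7 CPM to 78.8 and 73.7 CPM (log2 change 0.38, edgeR adjusted p = 0.0297). Only without WT replicate 3 did it keep its call (edgeR adjusted p from 0.0419 to 0.23 over the 4 fits). It shares exon bases with Oxa1l on the other strand, which was at 78.5 ± 7.65 and 70.9 ± 2.20 CPM and missed the threshold (edgeR adjusted p = 0.357). Slc7a6, a related exchanger, was at 16.9 and 11.9 CPM (WT) against 19.4 and 18.8 CPM (KO) and missed the threshold (edgeR adjusted p = 0.218; it passed without WT replicate 1, edgeR adjusted p = 0.0393). Per kilobase, Slc7a5 stood at 0.388 and 0.526 of Slc3a2 in the WT libraries and at 0.577 and 0.579 in the KO libraries, while Slc7a8 went from 0.152 and 0.196 to 0.0285 and 0.0337. The 5 light chains together stood at 1.72 and 2.18 times Slc3a2 in WT and at 1.79 and 1.71 times in KO, so the summed ratios overlapped between the genotypes. Among the other light chains, Slc7a15 had at most 1.21 CPM and did not pass, and Slc7a10, Slc7a12 and Slc7a13 were at 0.

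**Figure D2:**
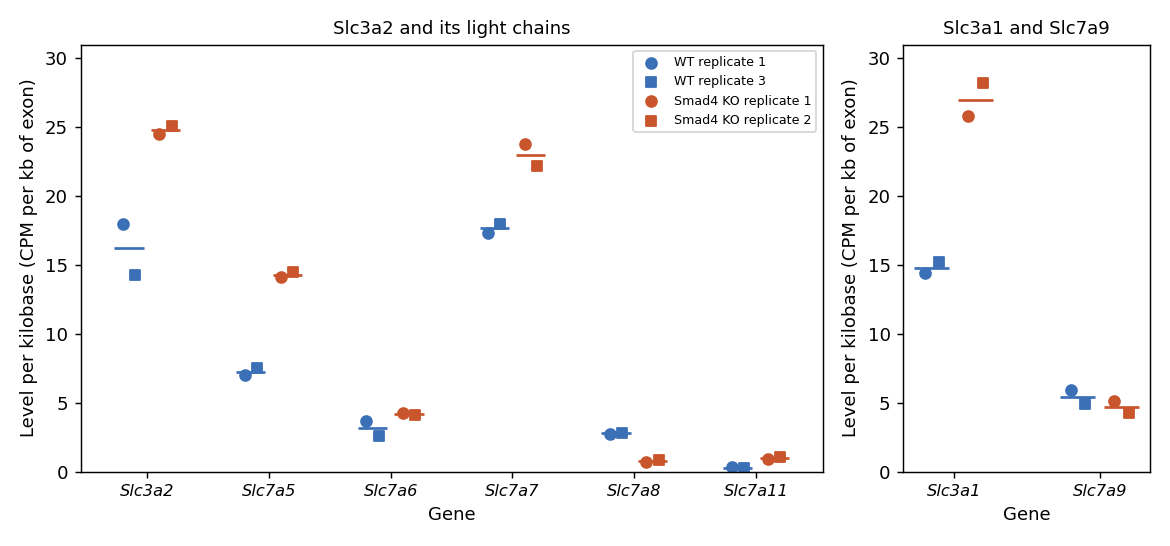
Level per kilobase of exon (CPM per kb, linear axis from 0) of the heavy chain Slc3a2 with 5 light chains (left) and of Slc3a1 with Slc7a9 (right). Each point is a library (blue WT, orange Smad4 KO) and each short line the mean of a genotype; both heavy chains are higher in KO, Slc7a5 rises from about 7 to 14 CPM per kb, Slc7a8 falls below 1, and Slc7a9 overlaps between the genotypes.

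Of the 5 carriers of cationic amino acids, 4 were tested and 2 rose. Slc7a1, the main arginine and lysine carrier of most cells, had 87.9 and 82.0 CPM (WT) against 111 and 112 CPM (KO) (log2 change 0.39, edgeR adjusted p = 0.0215). Dropping either KO library removed its call (edgeR adjusted p from 0.0239 to 0.154 over the 4 fits). Slc7a2, the arginine carrier that cytokines induce in macrophages and other cells, had 1.36 and 1.74 CPM (WT) against 5.92 and 3.37 CPM (KO) (log2 change 1.58, SE 0.363, edgeR adjusted p = 0.0446). The 2 KO libraries of Slc7a2 differed by more than the WT libraries, and the call held only without KO replicate 2 (edgeR adjusted p from 0.0467 to 0.22 over the 4 fits). By limma-voom Slc7a2 did not pass (adjusted p = 0.0767). Macrophage and neutrophil markers were higher in the same KO libraries, and their part in the Slc7a2 and Slc7a11 values was not tested. Slc7a4, whose transport function is unsettled, overlapped between genotypes at 3.65 and 8.37 CPM and at 6.52 and 7.51 CPM.

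In family 1, 1 of 3 tested glutamate and aspartate carriers fell and 1 of 2 neutral exchangers rose. Slc1a1, the epithelial and neuronal glutamate carrier that also takes up cysteine, had 120 and 115 CPM (WT) against 63.6 and 64.3 CPM (KO). It fell 1.84-fold (log2 change -0.88, SE 0.0678, edgeR adjusted p = 0.00162), and the gene lies at chr19:28835049-28913960 on the plus strand. The glial carriers Slc1a2 and Slc1a3 reached at most 1.28 CPM in any library and missed the threshold. Slc1a4 rose from 35.9 and 41.4 CPM to 60.4 and 67.0 CPM (log2 change 0.72, SE 0.109, edgeR adjusted p = 0.0125), a call that dropping either KO library removed (edgeR adjusted p from 0.013 to 0.0841 over the 4 fits). Slc1a5, the more abundant of the pair and the main glutamine exchanger of dividing cells, had 245 and 231 CPM (WT) against 182 and 204 CPM (KO). It did not pass (log2 change -0.30, SE 0.0792, edgeR adjusted p = 0.0631). Slc1a5 did pass as lower by DESeq2 (adjusted p = 0.0073), by limma-voom (adjusted p = 0.0474) and with no filter on low counts (edgeR adjusted p = 0.0478).

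In family 38, all 11 members had counts, 7 were tested and 1 rose. That one was Slc38a9, the lysosomal carrier that reports arginine to the growth kinase complex mTORC1. It had 8.09 and 7.13 CPM (WT) against 15.7 and 16.3 CPM (KO), a 2.1-fold rise (log2 change 1.07, SE 0.133, edgeR adjusted p = 0.00692). Without KO replicate 2 it just missed the threshold (edgeR adjusted p = 0.0528, and from 0.0131 over the 4 fits). Slc38a2, the small neutral amino acid carrier that cells raise when starved of amino acids, was the most abundant member and overlapped between genotypes, at 283 and 292 CPM (WT) against 284 and 279 CPM (KO) (log2 change -0.03, SE 0.0551, edgeR adjusted p = 0.768). Slc38a1, a glutamine carrier of the same kind, had 108 and 119 CPM against 133 and 134 CPM and missed the threshold (edgeR adjusted p = 0.105). Slc38a10 (162 and 156 against 145 and 144 CPM), the lysosomal glutamine carrier Slc38a7 (20.8 and 20.8 against 22.2 and 23.2 CPM) and Slc38a6 (11.1 and 9.89 against 10.6 and 9.10 CPM) did not pass either. Slc38a11 was at 0.670 and 0.642 CPM in WT and at 1.13 and 1.59 CPM in KO (edgeR adjusted p = 0.177).

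In family 43, Slc43a3, a carrier of purine bases and not of amino acids, rose 2.41-fold. Its libraries had 2.50 and 2.11 CPM (WT) against 5.46 and 5.68 CPM (KO) (log2 change 1.27, SE 0.216, edgeR adjusted p = 0.0185). The call went when either KO library was dropped (edgeR adjusted p from 0.0289 to 0.113 over the 4 fits). The facilitated carriers of branched amino acids Slc43a1 (5.29 and 5.62 against 4.57 and 4.2 CPM) and Slc43a2 (10.8 and 10.1 against 13.7 and 12.3 CPM) did not pass (edgeR adjusted p = 0.326 and 0.184).

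**Figure D3:**
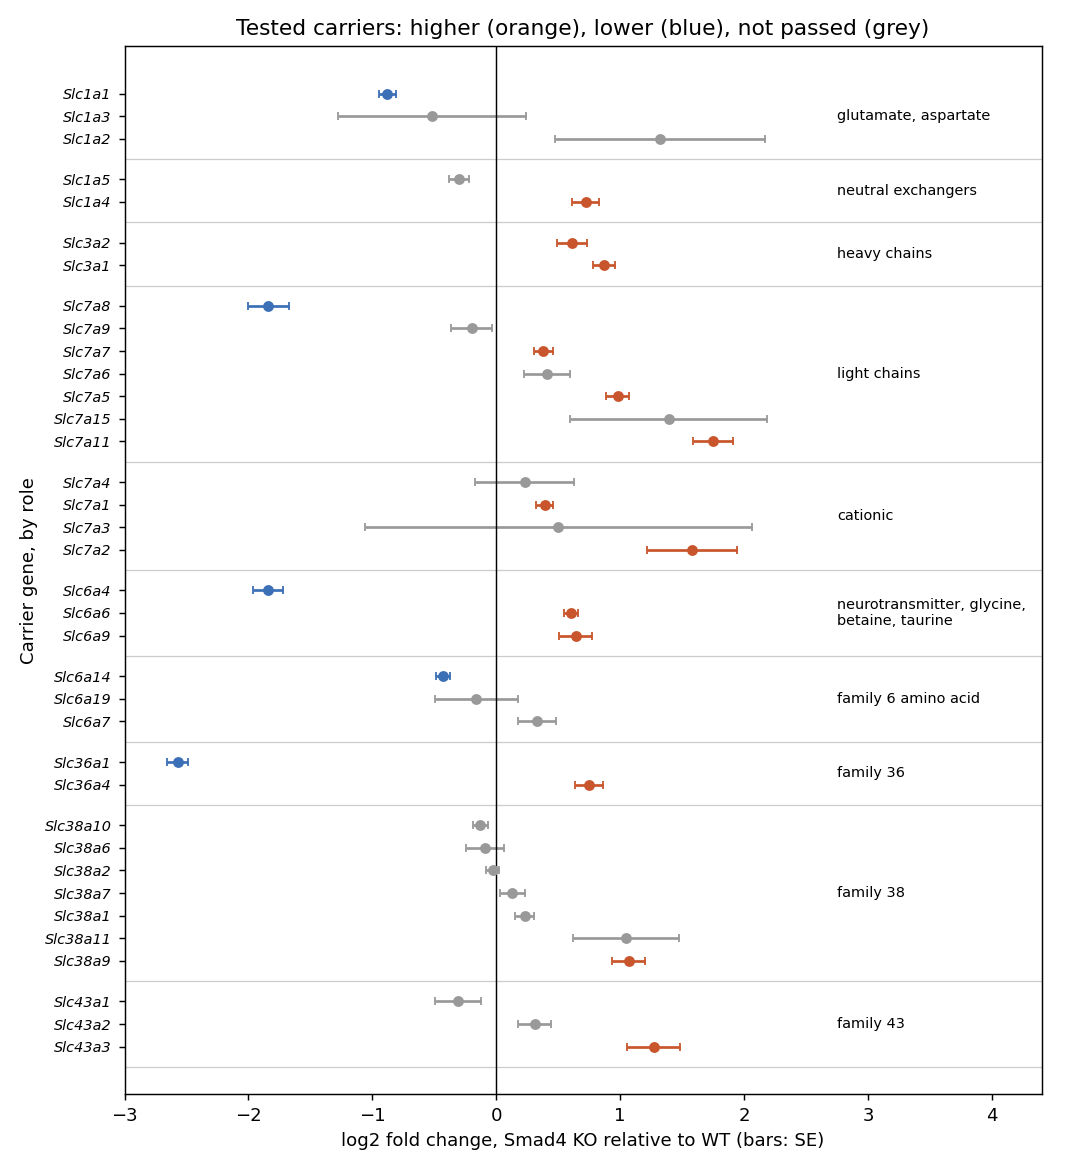
log2 change of the 36 tested carriers with counts in both genotypes, Smad4 KO relative to WT, with bars for the SE, grouped by role; orange rose, blue fell and grey did not pass. Slc36a1 lies farthest to the left at -2.57 and Slc7a11 farthest to the right at 1.75 among the genes that passed, and 6 of the 7 tested family 38 genes are grey.

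The genes around the carriers were read from 8 lists, each described by its counts. Over all tested genes, the shares to set beside these counts were 8.83% higher, 6.4% lower and 15.2% in either direction. Of 22 genes that amino acid shortage or Atf4 induces, 9 rose and 13 did not pass, with a median log2 change of 0.48. Of the 9 calls, 4 held without KO replicate 1, 4 without KO replicate 2, and 6 and 7 without WT replicates 1 and 3. Stc2, a secreted glycoprotein, rose from 30.6 ± 0.895 to 79.8 ± 1.31 CPM (adjusted p by edgeR = 0.000639). Chac1, which breaks down glutathione, rose 4.72-fold, from 1.96 ± 0.109 to 9.27 ± 0.281 CPM (adjusted p by edgeR = 0.00185). Psat1, an enzyme of serine synthesis, rose 2.12-fold (adjusted p by edgeR = 0.00977) and the stress factor Atf3 1.76-fold (adjusted p by edgeR = 0.00721; lost without KO replicate 1, 0.0528). Atf4 itself, named after its values were seen, rose 1.24-fold, from 150.0 ± 3.53 to 186 ± 4.67 CPM (adjusted p by edgeR = 0.0312), a call that held in 1 of 4 fits without a library. Of 20 cytosolic aminoacyl-tRNA synthetases, which load amino acids onto tRNA, 1 rose, 1 fell and 18 did not pass, with a median of 0.08. The tyrosine enzyme Yars fell 1.27-fold, a call that held only without WT replicate 1. The riser was the tryptophan enzyme Wars, which interferon also induces (224 ± 28.4 to 395 ± 10.7 CPM; adjusted p by edgeR = 0.00603).

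Among 14 other carriers of amino acids and peptides, 2 rose, 5 fell and 7 did not pass (median log2 change -0.39). Slc6a20a, a proline carrier of family 6, fell from 9.77 and 10.6 CPM to 3.09 and 4.18 CPM (log2 change -1.48, SE 0.209, edgeR adjusted p = 0.0101) and kept its call whichever library was dropped. Its close copy Slc6a20b reached at most 0.505 CPM and missed the threshold (edgeR adjusted p = 0.58). The apical peptide carrier Slc15a1 fell 2.08-fold, from 106 ± 2.32 to 51.1 ± 1.67 CPM (adjusted p by edgeR = 0.000986). The mitochondrial aspartate and glutamate carrier Slc25a12 fell 1.98-fold (adjusted p by edgeR = 0.00446) and the lysosomal cystine exporter Ctns 2.26-fold (adjusted p by edgeR = 0.00746). Slc15a3, a lysosomal peptide carrier of immune cells, rose 5.45-fold, from 0.953 ± 0.176 to 5.19 ± 0.276 CPM (adjusted p by edgeR = 0.00459), in the libraries where macrophage markers were higher; their part in it was not tested. The surface protein Cd44, which holds Slc7a11 at the membrane in some cells, rose from 26.2 ± 0.837 to 72.8 ± 5.51 CPM (adjusted p by edgeR = 0.000858).

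Of 14 genes of glutathione metabolism and the Nrf2 response, 3 rose and 11 did not pass (median 0.10), while 8.83% of all tested genes rose. Ggt1, which splits glutathione outside the cell, rose 2.85-fold (10.9 ± 1.92 to 31.1 ± 1.01 CPM; adjusted p by edgeR = 0.00351) and the redox enzyme Srxn1 1.79-fold (adjusted p by edgeR = 0.00212). Txnrd1 rose 1.25-fold (adjusted p by edgeR = 0.0207), a call that dropping either KO library removed (up to 0.153). Of 15 enzymes of glutamine, arginine and proline metabolism, 2 rose and 4 fell (median -0.26). Of these 6 calls, that of Arg2 alone held without KO replicate 1, and likewise without KO replicate 2. The mitochondrial arginase Arg2 rose 3.45-fold (2.59 ± 0.127 to 8.94 ± 0.502 CPM; adjusted p by edgeR = 0.00345). Glutamine synthetase, Glul, was at 474 ± 38.7 and 321 ± 15.1 CPM and fell 1.48-fold (adjusted p by edgeR = 0.00953), a call that dropping either KO library removed (up to 0.0738). In the mTORC1 amino acid sensing list edgeR called 0 of 25 genes, with 3 at an unadjusted p under 0.05, 1 called by DESeq2 and 0 by limma-voom. That list leaves out Slc38a9, which is counted with the carriers and rose 2.1-fold in the main fit (edgeR adjusted p = 0.00692).

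Around the serotonin carrier, 12 genes that handle monoamines, GABA and taurine gave 2 that rose, 5 that fell and 5 that did not pass. Of these 7 calls, 3 held without KO replicate 1 and 4 without KO replicate 2. Tph1, which makes serotonin in enterochromaffin cells, rose 2.23-fold, from 21.3 ± 1.91 to 47.5 ± 1.29 CPM (adjusted p by edgeR = 0.00273), while Slc6a4 fell. The degrading enzymes fell: Maob 4.75-fold, from 25.7 ± 0.306 to 5.42 ± 0.622 CPM (adjusted p by edgeR = 0.000735), and the GABA transaminase Abat 3.58-fold, from 398 ± 2.06 to 111 ± 0.460 CPM (adjusted p by edgeR = 0.000197). Ddc, which makes serotonin and dopamine from their precursors, fell 1.65-fold (adjusted p by edgeR = 0.00593), a call lost without KO replicate 1 (0.0592). Of 6 enteroendocrine markers in the same libraries, Chga rose 2.11-fold (adjusted p by edgeR = 0.00177) and Chgb 2.29-fold (adjusted p by edgeR = 0.00603). Pyy fell 2.61-fold (adjusted p by edgeR = 0.0015), Insl5 fell 3.07-fold (adjusted p by edgeR = 0.00148) and 2 did not pass. The part of these markers in the values above was not tested.

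**Figure D4:**
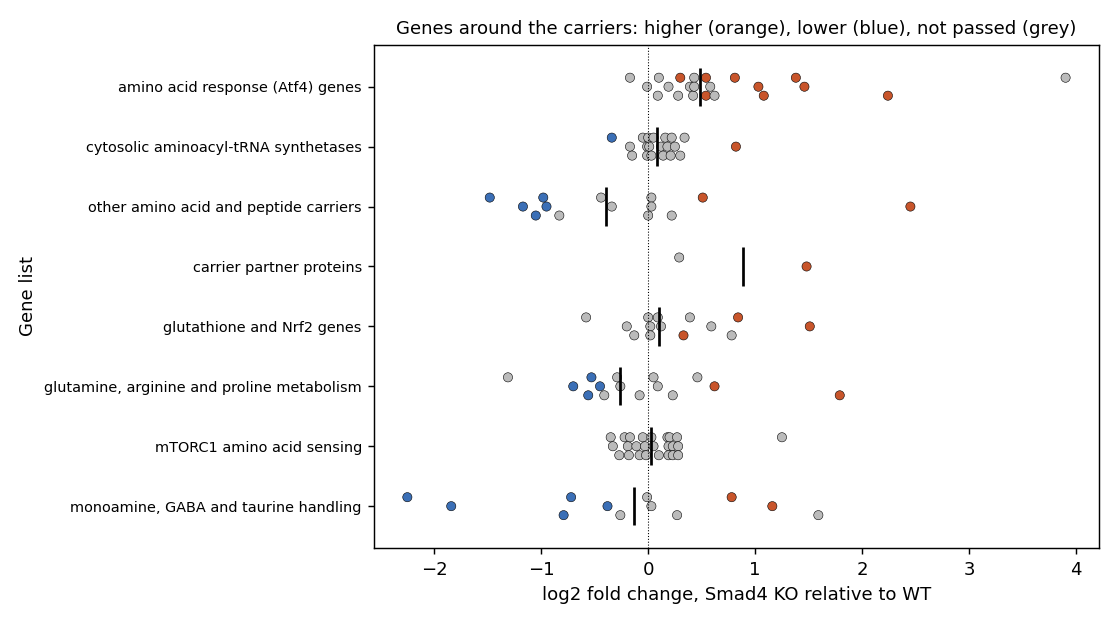
log2 fold change, Smad4 KO relative to WT, of each tested gene in 8 lists around the carriers (orange rose, blue fell, grey did not pass; the black bar is the list's median). The Atf4 list has a median of 0.48 and 9 orange points, and the mTORC1 list has grey points only.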

How the data were processed

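The table the authors deposited holds counts of 31227 Ensembl genes in 4 libraries, which were assumed to be unnormalized. StringTie 1.3.3b, SAMtools 1.9, HISAT2 2.1.0 and FastQC (version given as 0.19.7), on GRCm38, are named in the submitters' processing notes. The counting step and its strand setting: not given in the sources used here. Low counts come in steps of about 4: in WT replicate 1, 831 genes have 4 or 5 counts and 190 have 6 or 7. A count is thus not 1 read, so floors were set at 3 steps and cover counting error only. GENCODE M21 gave symbols and exon lengths; a listed symbol with 2 rows took the row with more counts. edgeR 4.0.16 (R 4.3.3) filtered low counts, normalized by TMM and tested genotype alone, after a test on simulated data. The SE is the log2 fold change divided by the square root of F. Values were printed for carriers that passed or averaged at least 10 CPM in a genotype, plus Slc3a1, Slc3a2, Slc6a4, Slc6a19 and Slc7a11, and up to 4 genes per list by p. Slc1a2, Slc1a3, Slc7a4, Slc7a15, Slc38a11, Slc43a1, Slc6a20a, Slc6a20b, Yars, Atf4 and the epithelial, goblet and enteroendocrine genes were named after their values were seen. The carriers and lists were chosen with earlier results of these data known. Alternatives used DESeq2 1.42.0, limma 3.58.1, other scalings and filters, and each library left out. Results on some items are not reported here.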

Additional observations from a re-analysis of the deposited data

How the results depend on the processing

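Leaving out each library in turn gave 547 to 1504 genes higher in KO and 425 to 1069 lower, against 1398 and 1014 with all 4, with the fewest without a KO library. For the carriers it gave 5 to 12 higher and 4 to 5 lower, against 13 and 6. With 1 library left in a genotype, its spread is assumed to be that of the other. Of the 19 carriers that passed, 8 kept their calls in all 4 such fits: Slc1a1, Slc3a1, Slc6a4, Slc6a6, Slc7a5, Slc7a8, Slc7a11 and Slc36a1. DESeq2 called 1922 genes higher and 1524 lower, more than the main fit in both directions, and the cause was not tested. Its carriers numbered 13 higher and 7 lower. Upper-quartile scaling, DESeq2 size factors, a filter of 1 CPM in 2 libraries, no filter, limma-voom and counts divided by 4 (added after the data were seen) gave 12 to 13 carriers higher and 5 to 8 lower. Slc6a12 was not tested under the 1 CPM filter or with counts divided by 4. Slc38a6, which did not pass, changed sign without KO replicate 2 (log2 change 0.01; -0.20 to 0.01 over the 4 fits). No paired analysis was possible because the genotypes share only replicate number 1.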
